A study of Mus musculus with 8 samples.

Results

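Macrophage identity genes and the C1q genes were examined in the prostates of non-obese diabetic (NOD) mice, 4 treated with etanercept and 4 controls. The set holds 10 genes, chosen by name: Adgre1, Cd68, Csf1r, Cd163, Mrc1, Lyz2, C1qa, C1qb, C1qc and Trem2. They are 10 of the 54532 genes in the count table, and 10 of 10 passed the filter on low counts that left 15472 genes for testing. Bulk RNA-seq was performed on poly(A)-selected RNA from whole frozen prostates. NOD males develop autoimmune inflammation that reaches the prostate, and the study used them to ask how blocking TNF alters an inflamed gland. Etanercept is a decoy form of the TNF receptor that captures the cytokine before it reaches cells. Treated mice received etanercept at 4 mg/kg and control mice received the PBS vehicle, in each case as 2 injections per week over 5 weeks, with tissue taken at an age of 30 weeks. All 8 mice carry the NOD background and no engineered allele is named in the labels. Each mouse is named by its group and number: the controls were 1, 3, 65 and 69, and the treated mice 17, 19, 50 and 52. The labels do not give the diabetic state of the single mice. The libraries held 13760669 to 25178942 counts.

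Macrophages engulf debris, dying cells and microbes, and their survival depends on the receptor encoded by Csf1r. C1q is the recognition molecule of the classical complement pathway. It is built from the A, B and C chains made by C1qa, C1qb and C1qc, and unlike most complement proteins it is made by tissue macrophages rather than by the liver. TREM2 is a macrophage receptor for lipids and apoptotic cells, and CD163 and the mannose receptor MRC1 are scavenger receptors of resident, tissue-maintaining macrophages. In bulk tissue, fewer macrophages and less RNA per macrophage cannot be told apart.

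The C1q genes lie side by side on the minus strand of chromosome 4 and are written out here because C1qa and C1qb had the lowest p-values of the set and all of them belong to a single locus. In the GENCODE M21 annotation of GRCm38, C1qb lies at chr4:136880129-136886187, C1qc at chr4:136889804-136893065 and C1qa at chr4:136895917-136898803. The cluster spans 18675 nt, with 0 other genes of the count table inside it. Elsewhere in the genome are Adgre1 at chr17:57358691-57483527 and Trem2 at chr17:48346401-48354147, both on the plus strand, Cd68 at chr11:69664213-69666153 and Lyz2 at chr10:117277331-117282321, both on the minus strand, and Cd163 at chr6:124304656-124330527 and Mrc1 at chr2:14229392-14332057 on the plus strand. The 250 bases before the RefSeq start of C1qb (chr4:136886201-136886450) and C1qc (chr4:136892915-136893164) are given below on build GRCm38.p6, 5′ to 3′ on the minus strand. Capitals mark GAGGAA, the core letters bound by PU.1, the myeloid transcription factor encoded by Spi1, or TTCCTC, the same letters on the other strand.
C1qb: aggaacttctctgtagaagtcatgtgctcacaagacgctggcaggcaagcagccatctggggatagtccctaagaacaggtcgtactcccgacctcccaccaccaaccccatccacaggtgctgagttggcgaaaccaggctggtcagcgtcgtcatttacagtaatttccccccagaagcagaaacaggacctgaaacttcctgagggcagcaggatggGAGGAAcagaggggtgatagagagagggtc
C1qc: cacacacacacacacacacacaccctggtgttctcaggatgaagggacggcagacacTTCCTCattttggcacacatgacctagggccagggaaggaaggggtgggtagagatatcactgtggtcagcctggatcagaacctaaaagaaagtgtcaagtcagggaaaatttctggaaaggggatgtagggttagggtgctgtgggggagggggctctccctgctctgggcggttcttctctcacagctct
The match stood 30 bases before the start of C1qb and 193 bases before that of C1qc. GAGGAA, searched on both strands, was in 23.3% of the 32851 mouse promoters of the same length, so a match is common, and binding was not tested. Of the 10 genes, 7 had a promoter in the table. Cd68 and Trem2 held 1 match each and Mrc1 held 3, while Cd163 and Lyz2 held 0. TTGCNNAA, the C/EBP motif, was searched in the same way and was in Cd68 (9.56% of all promoters).

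Expression was compared in CPM, the counts of a gene scaled to the library total, after TMM scaling. A positive log2 fold change stands for a higher level with etanercept. Each of the 10 genes had a lower mean in etanercept-treated than in control prostates, but 0 of 10 passed an adjusted p of 0.05 in the quasi-likelihood test of edgeR after Benjamini-Hochberg adjustment (background 0% of all genes tested). The smallest adjusted p over all genes was 0.739. DESeq2's Wald test likewise called 0 of the 10, against 0.162% of all genes. At an unadjusted p of 0.05, 3 of the 10 were lower in edgeR (C1qa, C1qb and Cd68, background 3.63%) and 5 of the 10 in DESeq2 (background 4.84%), and 0 were higher in edgeR (background 2.99%). Without etanercept 50, C1qb (unadjusted p = 0.0702) and Cd68 (unadjusted p = 0.0886) did not pass in edgeR's quasi-likelihood test. The edgeR count of 3 was 5 without control 69, 5 with library size alone and 2 with the animal number range as a term. The share of all genes at this threshold was not taken in these other fits, so their counts have no background. The log2 fold change was negative for 10 of 10, against 51.0% of all genes, with a median of -0.83 against -0.0099 over all genes. The 10 genes come largely from the same cells and are not independent replicates. All treated mice were below all controls for 2 of the 10, C1qb and Cd163, against 2.53% of all genes, and above all controls for 0 of the 10, against 2.41%.

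Control 3 had the highest level of the 8 mice for 10 of 10 genes, which was so for 13% of all genes. Without control 3, 7 of 10 log2 fold changes were negative (50.3% of all genes) and their median was -0.37. In that fit 1 gene, C1qa, was lower at an unadjusted p of 0.05 in edgeR (3.03% of all genes). Each gene is therefore given with and without control 3.

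**Figure D1:**
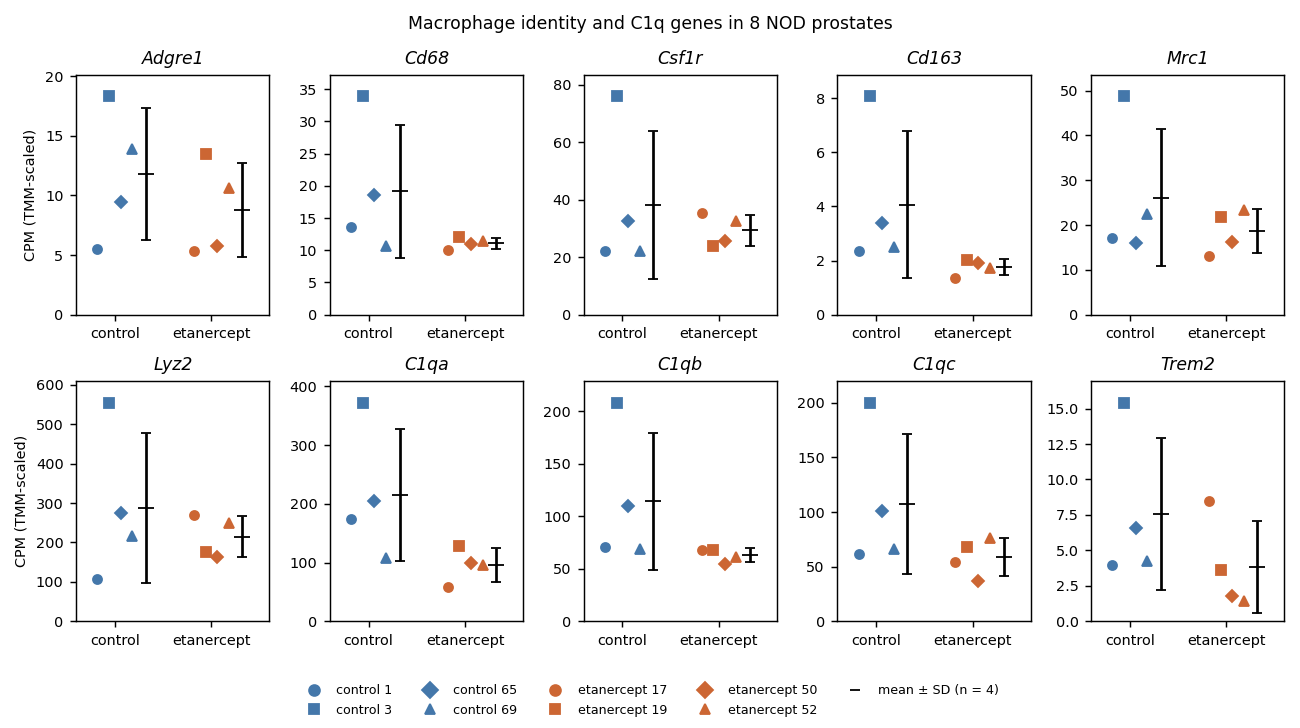
Level of each of the 10 genes, in CPM after TMM scaling on axes that start at 0, in every mouse of the control (blue) and etanercept (orange) groups, with the mean ± SD of 4 mice as a bar. Control 3 (blue square) is the highest point in each panel, and the groups do not overlap for Cd163 and C1qb.

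Among the C1q chains, C1qa showed the largest difference. Its level was 175 CPM in control 1, 372 in control 3, 205 in control 65 and 107 in control 69, against 57.5 in etanercept 17, 128 in etanercept 19, 99.8 in etanercept 50 and 95.0 in etanercept 52. All but etanercept 19 lay below the lowest control mouse. The means were 215 ± 113 CPM in controls and 95.0 ± 28.8 CPM with etanercept (SD, n = 4), and the fitted level with etanercept was 44.3% of that in controls. Its log2 fold change was -1.18 with a standard error of 0.37 (edgeR's quasi-likelihood test, unadjusted p = 0.0109, Benjamini-Hochberg adjusted p = 0.739). DESeq2 gave -1.19 with an unadjusted p of 0.00159 and an adjusted p of 0.196. C1qa stayed below an unadjusted p of 0.05 in 14 of 14 other edgeR fits and in 9 of 9 DESeq2 fits. In the same 14 edgeR fits C1qb was below it in 10, C1qc in 7, Cd68 in 6, Cd163 in 4 and Trem2 in 1. Adgre1, Csf1r, Mrc1 and Lyz2 were below it in 0. These fits reuse the same mice and are not independent, and the share of all genes was not taken. Without control 3 its log2 fold change was -0.77 (edgeR's quasi-likelihood test, unadjusted p = 0.0348). When control 69 was left out, DESeq2 called C1qa at a log2 fold change of -1.40 (adjusted p = 0.00609), 1 of 293 genes called in that fit (1.83% of all genes), and edgeR gave an adjusted p of 0.274 for the same mice.

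C1qb stood at 70.8, 208, 110 and 68.5 CPM in control 1, 3, 65 and 69, and at 68.2, 68.2, 54.2 and 61.0 CPM in etanercept 17, 19, 50 and 52. The groups did not overlap, although control 69 and 2 treated mice were separated by a narrow gap. The means were 114 ± 65.5 and 62.9 ± 6.75 CPM (SD, n = 4), with a log2 fold change of -0.86 and a standard error of 0.34 (edgeR's quasi-likelihood test, unadjusted p = 0.0289, Benjamini-Hochberg adjusted p = 0.739). Without control 3 the log2 fold change was -0.40. The treated mice were close to each other, and most of the difference between the means came from control 3 and control 65.

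C1qc was measured at 62.0, 200, 101 and 65.9 CPM in the controls and at 54.3, 68.1, 36.5 and 76.4 CPM in the treated mice, in the same order. Its groups overlapped, since etanercept 19 and 52 were above control 1 and 69. The means were 107 ± 64.5 and 58.8 ± 17.5 CPM (SD, n = 4) and the log2 fold change was -0.87 with a standard error of 0.39 (edgeR's quasi-likelihood test, unadjusted p = 0.0512, Benjamini-Hochberg adjusted p = 0.743). Without control 3 it was -0.37.

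The chains did not keep a fixed proportion between mice. The count of C1qa over that of C1qb was 2.47, 1.79, 1.86 and 1.56 in control 1, 3, 65 and 69, and 1.87, 1.84 and 1.56 in etanercept 19, 50 and 52. In etanercept 17 it was 0.844, with 988 counts of C1qa and 1171 of C1qb, the single mouse with fewer C1qa than C1qb counts. C1qc over C1qb was 0.875 to 0.962 in the controls and ranged from 0.673 in etanercept 50 to 1.25 in etanercept 52. Etanercept 17 was also the mouse with by far the highest sum of seminal vesicle secretory genes, 97204 CPM against 0 to 4001 CPM in the other mice, and the part of this in its C1q proportion was not tested.

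Of the genes common to most macrophages, Cd68, a lysosomal glycoprotein, had the largest difference. It was measured at 13.6, 33.9, 18.6 and 10.7 CPM in control 1, 3, 65 and 69, and at 10.02, 11.98, 10.9 and 11.4 CPM in etanercept 17, 19, 50 and 52. Control 69 lay within the treated group, while the other 3 controls were above it. In the fit, Cd68 had a log2 fold change of -0.79 with a standard error of 0.35 (edgeR's quasi-likelihood test, unadjusted p = 0.0483, Benjamini-Hochberg adjusted p = 0.743) and -0.37 without control 3.

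Adgre1 encodes F4/80, the surface antigen used to stain mouse macrophages. It stood at 5.50, 18.3, 9.44 and 13.9 CPM in the controls and at 5.30, 13.5, 5.74 and 10.6 CPM in the treated mice. The groups overlapped, with control 3 and 69 above every treated mouse and etanercept 17 below every control. This gave a log2 fold change of -0.42 with a standard error of 0.45 (edgeR's quasi-likelihood test, unadjusted p = 0.371, Benjamini-Hochberg adjusted p = 0.925) and -0.13 without control 3.

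Csf1r (chr18:61100598-61132149, plus strand), the receptor for the growth factors CSF1 and IL-34, was at 22.0, 75.9, 32.5 and 22.1 CPM in the controls and at 35.2, 23.96, 25.6 and 32.6 CPM in the treated mice. Apart from control 3, the treated mice spanned much the same range as the controls. The log2 fold change was -0.38 with a standard error of 0.39 (edgeR's quasi-likelihood test, unadjusted p = 0.359, Benjamini-Hochberg adjusted p = 0.923), and it turned to 0.20 without control 3. Exons of Csf1r overlap those of Hmgxb3 on the other strand, which held 115 to 244 counts against 381 to 1139 for Csf1r. Whether strand was used in counting was not given in the sources used here, so the count of Csf1r is uncertain to that extent.

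Lyz2, the lysozyme of macrophages and other myeloid cells, was the most abundant gene of the set, with 106, 554, 275 and 216 CPM in the controls and 269, 176, 164 and 249 CPM in the treated mice. Control 1 had the lowest level of all mice and control 3 the highest, with the treated mice between them. The log2 fold change was -0.42 with a standard error of 0.43 (edgeR's quasi-likelihood test, unadjusted p = 0.349, Benjamini-Hochberg adjusted p = 0.922) and 0.10 without control 3. Reads shared with its near-identical copy Lyz1 could be split between them. Lyz1 held 41 to 181 counts, and Lyz2 exceeded it 29.5-fold to 91.0-fold.

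The scavenger receptor Cd163 was a low-count gene, with 43 to 121 counts per control and 23 to 38 per treated mouse. Its level was 2.35, 8.07, 3.38 and 2.49 CPM in control 1, 3, 65 and 69 and 1.34, 2.03, 1.91 and 1.73 CPM in etanercept 17, 19, 50 and 52. The groups did not overlap, and the difference did not pass the threshold. Its log2 fold change was -1.21 with a standard error of 0.57 (edgeR's quasi-likelihood test, unadjusted p = 0.0608, Benjamini-Hochberg adjusted p = 0.748), the largest of the set, and -0.64 without control 3. For Mrc1, the mannose receptor CD206, the groups overlapped. It was at 17.1, 48.7, 16.1 and 22.5 CPM in the controls and at 13.05, 21.9, 16.2 and 23.4 CPM in the treated mice, with a log2 fold change of -0.49 and a standard error of 0.38 (edgeR's quasi-likelihood test, unadjusted p = 0.226, Benjamini-Hochberg adjusted p = 0.868). Without control 3 its log2 fold change was 0.001.

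Trem2 was at 3.98, 15.4, 6.55 and 4.28 CPM in the controls and at 8.50, 3.64, 1.79 and 1.46 CPM in the treated mice. Etanercept 17 exceeded 3 of the 4 controls, while etanercept 19, 50 and 52 were below every control. The log2 fold change was -0.97 with a standard error of 0.67 (edgeR's quasi-likelihood test, unadjusted p = 0.179, Benjamini-Hochberg adjusted p = 0.846). It was -1.71 without etanercept 17 (unadjusted p = 0.0254) and -0.37 without control 3. The size of the difference in Trem2 thus varied with etanercept 17 and with control 3.

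**Figure D2:**
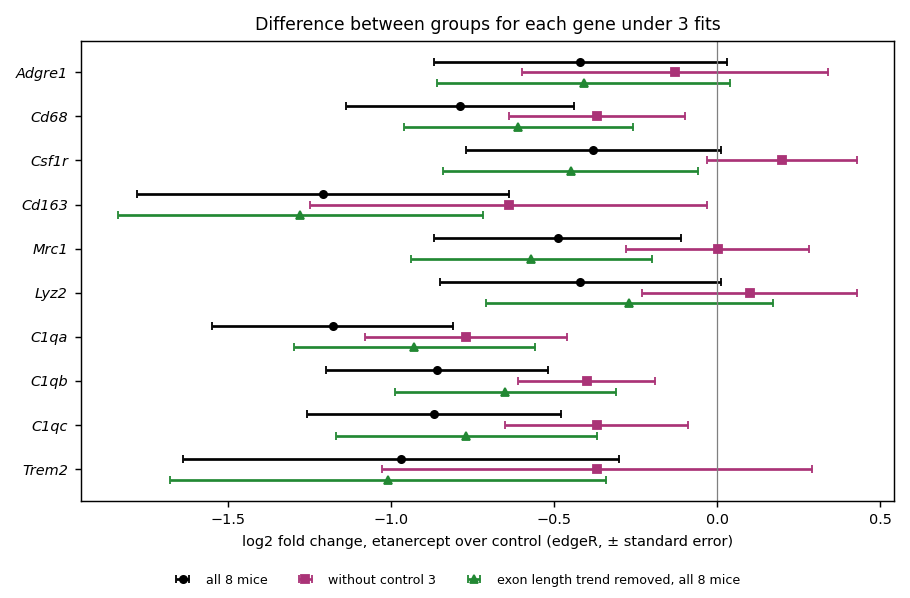
Log2 fold change of each gene (etanercept over control, edgeR) with its standard error as a horizontal bar, for all 8 mice (black), without control 3 (purple) and with the trend of each library with exon length removed (green). Control 3 was the highest mouse for each gene, so leaving it out moves each estimate towards or past 0 by construction. C1qa is then the lowest at -0.77.

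The C1q genes, Cd68 and Lyz2 have short transcripts, and the trend of each library with exon length was removed in an alternative fit. There 10 of 10 estimates stayed negative (53.1% of all genes) with a median of -0.63. At an unadjusted p of 0.05 in edgeR, 2 genes were lower, C1qa at -0.93 and Cd163 at -1.28 (3.53% of all genes). C1qb (-0.65, unadjusted p = 0.0863) and Cd68 (-0.61, unadjusted p = 0.117) no longer passed in edgeR's quasi-likelihood test.

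Levels were compared between genes per kilobase of exon, as the mean CPM per kilobase over the 8 mice. Lyz2 came first at 191 ± 103, followed by C1qa at 149 ± 95.7, C1qb at 81.5 ± 47.0 and C1qc at 43.0 ± 26.3 (SD, n = 8). The pan-macrophage genes were lower, with Cd68 at 12.1 ± 6.42 and Csf1r at 5.84 ± 3.09. Mrc1 stood at 3.51 ± 1.77 and Adgre1 at 3.18 ± 1.47, and these neighbours did not differ beyond their spread, since Mrc1 was the higher in 5 of 8 mice. Trem2 at 1.15 ± 0.921 and Cd163 at 0.533 ± 0.397 came last. Each of the other genes was above the next in at least 7 of 8 mice.

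Ratios within a library were used to compare C1q with the macrophage genes without a scaling factor. The summed counts of C1qa, C1qb and C1qc exceeded those of Adgre1, Cd68 and Csf1r 7.47-fold, 6.09-fold, 6.87-fold and 5.16-fold in control 1, 3, 65 and 69, and 3.56-fold, 5.33-fold, 4.51-fold and 4.25-fold in etanercept 17, 19, 50 and 52. Etanercept 19 was above control 69, and otherwise the groups were apart. The log2 ratio was 2.66 ± 0.23 in controls and 2.13 ± 0.24 with etanercept (SD, n = 4), a difference of -0.54 (two-sided exact permutation test over 70 assignments, p = 0.0571, adjusted p = 0.228 over 4 ratios). The smallest p this design allows is 0.0286. Leaving out each mouse in turn gave differences from -0.64 to -0.44, and -0.56 without control 3, which itself lay between the other controls. With counts taken per kilobase the difference was -0.42. Csf1r, whose count is uncertain because of Hmgxb3, is part of the lower sum of this ratio.

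The groups overlapped in each of the 4 ratios, and none of them, the C1q ratio included, passed the threshold after adjustment. The other ratios had higher p-values than the C1q ratio. Adgre1 was set against Ptprc, which encodes the leukocyte antigen CD45. The log2 ratio was -1.29 ± 0.77 in controls and -1.94 ± 1.15 with etanercept (SD, n = 4), a difference of -0.66 (exact permutation test, p = 0.371, adjusted p = 0.495 over 4 ratios). Leaving out each mouse gave -1.01, without etanercept 19, to -0.23, without etanercept 17, and -0.31 without control 69. Ptprc itself was at 33.5 ± 30.3 CPM in controls and 33.0 ± 12.4 CPM with etanercept, a log2 fold change of -0.02. Control 3 stood at 78.7 CPM and the other controls at 15.6 to 23.1 CPM, and without control 3 the log2 fold change of Ptprc was 0.84 and the difference in the ratio -0.93. For Cd163 and Mrc1 over the pan-macrophage genes the difference was -0.10 (exact permutation test, p = 0.571, adjusted p = 0.571 over 4 ratios), and it turned to 0.035 with counts taken per kilobase and to 0.068 without etanercept 17. For Trem2 over the pan-macrophage genes the difference was -0.75 (exact permutation test, p = 0.286, adjusted p = 0.495 over 4 ratios). The controls were close together in this ratio, at 0.0924 to 0.120, while etanercept 17 reached 0.169 and etanercept 19, 50 and 52 had 0.0740, 0.0432 and 0.0272. Without etanercept 17 the difference was -1.23 on the log2 scale, with an exact permutation p of 0.0286.

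**Figure D3:**
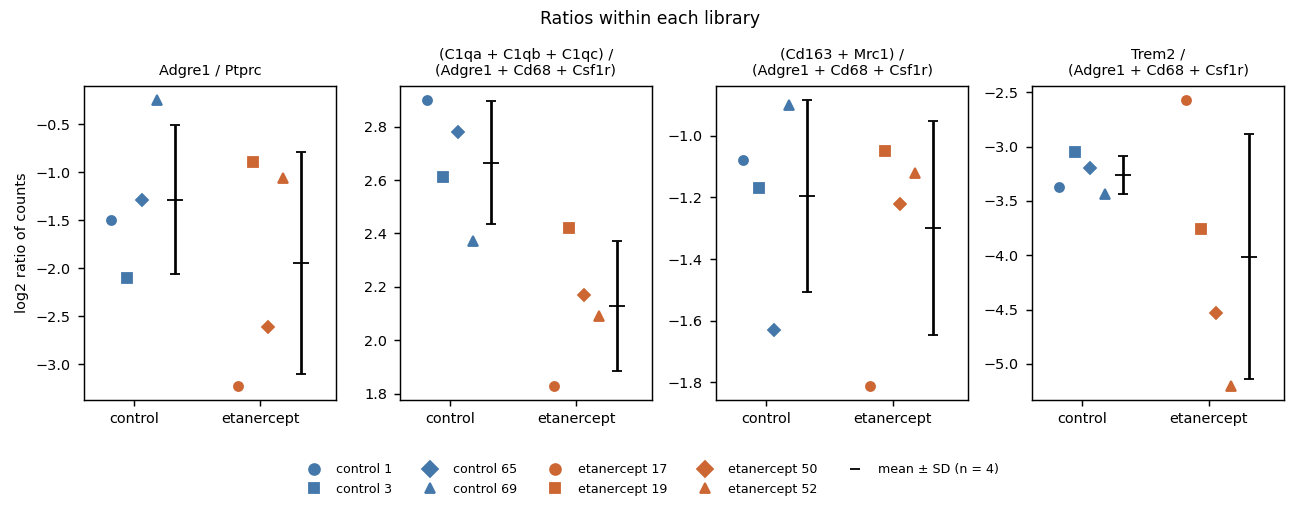
Log2 ratio of counts within each library, for the 4 ratios given in the panel titles, in every control (blue) and etanercept (orange) mouse, with the mean ± SD of 4 mice as a bar. The C1q ratio is lower in treated mice except for etanercept 19, which lies above control 69, and etanercept 17 is the highest point of the Trem2 ratio.

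Genes that act with these in the same pathways were examined as lists, and edgeR called 0 genes in each list at an adjusted p of 0.05. Over all genes the median log2 fold change was -0.0099, 51.0% of log2 fold changes were negative and 3.63% of genes were lower at an unadjusted p of 0.05, and the counts of each list stand against these shares. Among the CSF1 receptor ligands and myeloid transcription factors, Spi1, which encodes PU.1, was at 25.5 ± 11.3 CPM in controls and 14.0 ± 2.90 CPM with etanercept (log2 fold change -0.87, edgeR's quasi-likelihood test, unadjusted p = 0.0205), and its log2 fold change was -0.52 without control 3. The ligands of the receptor did not pass an unadjusted p of 0.05. Csf1 had a log2 fold change of 0.15 and Il34 of 0.36.

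Of 10 genes around TREM2 and lipid handling, 3 were lower at an unadjusted p of 0.05 and the median was -0.25, and -0.10 without control 3. Lpl, the lipoprotein lipase of adipocytes and lipid-laden macrophages, was at 77.8, 111, 40.4 and 31.9 CPM in control 1, 3, 65 and 69 and at 9.38, 22.7, 10.6 and 16.8 CPM in etanercept 17, 19, 50 and 52. The groups did not overlap, and Lpl was 1 of the 25 genes that DESeq2 called (adjusted p = 0.00403). In edgeR's quasi-likelihood test its log2 fold change was -2.13 (Benjamini-Hochberg adjusted p = 0.739) and -1.75 without control 3. Of 4 tested adipocyte markers, 4 had negative log2 fold changes and 2, Plin1 (-3.31, and -2.23 without control 3) and Adipoq (-3.46, and -2.47 without control 3), were lower at an unadjusted p of 0.05. Their sums were 4.09 to 94.0 CPM in controls and 3.73 to 9.22 CPM with etanercept, with ranges that overlapped, and their part in the result for Lpl was not tested. Lgals3, which encodes galectin-3, and Apoe, the lipid carrier apolipoprotein E, each had a log2 fold change of -0.88, which was -0.76 and -0.55 without control 3. Tyrobp, the adaptor through which TREM2 signals, was at 20.9 ± 9.49 and 12.4 ± 4.01 CPM (-0.75, edgeR's quasi-likelihood test, unadjusted p = 0.0659), with a log2 fold change of -0.43 without control 3.

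Among the partners of C1q, 6 of 6 classical complement genes had negative log2 fold changes, with a median of -0.59 that was -0.14 without control 3. C1ra, a protease of the C1 complex, was at 66.2 ± 31.8 and 33.7 ± 9.37 CPM (-0.98) and C4b, which encodes a component cleaved by that complex, at 90.4 ± 57.8 and 46.4 ± 9.70 CPM (-0.96, and -0.44 without control 3). Each had an unadjusted p below 0.05, and C3, the central component, did not (-0.75, and -0.11 without control 3). Of 13 Fc and phagocytic receptors, 2 were lower at an unadjusted p of 0.05. Fcgr1, the high-affinity IgG receptor, was at 10.7 ± 5.32 and 3.86 ± 1.97 CPM (-1.47, and -1.17 without control 3), and Cd36, a lipid scavenger receptor also made by adipocytes and endothelium, at 41.6 ± 51.6 and 11.4 ± 3.05 CPM (-1.87, and -0.49 without control 3). The scavenger receptor Msr1 had a log2 fold change of -1.17 with an unadjusted p of 0.0533 in edgeR's quasi-likelihood test.

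Markers of macrophage states were read in the same way. Of 9 tested genes of resident macrophages, 6 had negative log2 fold changes and 1, Ms4a7, was lower at an unadjusted p of 0.05, at 11.6 ± 6.93 and 4.50 ± 1.52 CPM (-1.37, and -0.94 without control 3). The lectin genes Clec10a and Fcna had log2 fold changes of -1.30 and -1.65 that did not pass even this threshold, and of -0.55 and -0.58 without control 3. Lyve1, shared with lymphatic endothelium, had -1.24 (-0.52 without control 3), and the folate receptor gene Folr2 had 1.14 (3.14 without control 3) at 0 to 2.62 CPM. Of 7 tested monocyte genes, 0 were lower or higher at an unadjusted p of 0.05. Of 7 tested inflammatory macrophage genes, 1 was lower: Nos2, the inducible nitric oxide synthase, was at 1.19, 4.27, 1.76 and 0.637 CPM in control 1, 3, 65 and 69, at 0 in etanercept 17, 19 and 50, and at 0.346 in etanercept 52. These are few counts, and its unadjusted p in edgeR's quasi-likelihood test was 0.0145 with an adjusted p of 0.739.

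Markers of other cell types were summed in each mouse to show what moved beside the macrophage genes. The 10 macrophage and C1q genes summed to 478, 1535, 778 and 533 CPM in control 1, 3, 65 and 69 and to 522, 517, 416 and 563 CPM in etanercept 17, 19, 50 and 52. The groups thus overlapped and control 3 was the highest. The 6 pan-leukocyte genes summed to 272 to 725 CPM in controls and 251 to 469 CPM with etanercept, and control 3 was again the highest. Their log2 fold changes were negative in 6 of 6, with a median of -0.35 that turned to 0.11 without control 3. T cell markers had negative log2 fold changes in 8 of 8, against 51.0% of all genes, with a median of -0.98 that was -0.68 without control 3. Of these, 4 were lower at an unadjusted p of 0.05, against 3.63% of all genes, led by Lck, a kinase of the T cell receptor, at 20.8 ± 8.70 and 9.83 ± 1.63 CPM (-1.08). The fourth, Cd8a (-1.63), is named because of its count and was picked after its values were seen, and the others were Cd3g (-1.09) and Cd3e (-1.05). B cell and plasma cell markers were negative in 6 of 6, with a median of -0.89 that was -0.055 without control 3. Of these, 2 were lower at an unadjusted p of 0.05, the plasma cell genes Jchain (-1.91) and Mzb1 (-1.88), and each had a log2 fold change of -1.18 without control 3. Control 3 also held the highest sum of dendritic cell, mast cell, endothelial, adipocyte and skeletal muscle markers. Of 8 neutrophil markers, 1 passed the filter, and S100a8 and Ngp were at 0 in all mice. Prostate epithelial markers were present in every mouse, with sums of 3180 to 12025 CPM. Their log2 fold changes were negative in 7 of 7, with a median of -0.37, and -0.48 without control 3. Endothelial and lymphatic markers were negative in 6 of 6, with a median of -0.49 that was 0.044 without control 3. Smooth muscle and fibroblast markers had a positive median of 0.50. The part of these cell types in the differences of the macrophage genes was not tested.

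**Figure D4:**
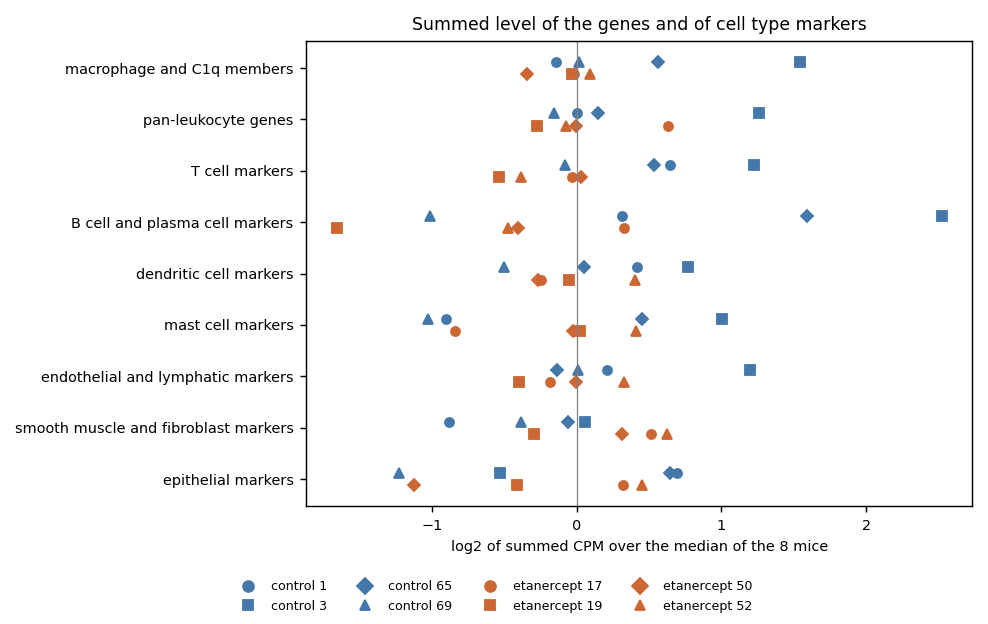
Summed CPM of the 10 macrophage and C1q genes and of marker lists for other cell types, as log2 of the sum over the median of the 8 mice, in every control (blue) and etanercept (orange) mouse. Control 3 (blue square) is the highest point for the macrophage genes, at 1535 CPM, and for the leukocyte, T cell, B cell, dendritic cell, mast cell and endothelial lists.

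The genes whose level followed the 10 most closely across the 8 mice were found by Pearson's r of log2(CPM + 1) with the mean of the scaled members. They were Unc93b1 (r = 0.98), Itgb7 (0.97), Batf3 (0.97), Zfp280b (0.97) and Ctss (0.96). Unc93b1 carries nucleic acid-sensing Toll-like receptors to endosomes, Itgb7 is an integrin of lymphocytes, Batf3 a transcription factor of dendritic cells and Ctss the protease cathepsin S of antigen-presenting cells. With C1qa, C1qb and C1qc alone, the closest were Myo7a (0.97), Itgb7 (0.97), the immunoglobulin segment Ighv1-69 (0.97), Ms4a7 (0.97) and Batf3 (0.96). These points share libraries and control 3 stretches the scale. Over the 7 mice without it the values were 0.83 to 0.87 for the first set. With the C1q genes they were 0.92 for Myo7a, 0.91 for Itgb7, 0.93 for Ighv1-69, 0.97 for Ms4a7 and 0.87 for Batf3.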

How the data were processed

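Whole prostates from 8 NOD mice, 4 per group, were profiled by bulk RNA-seq with paired reads of 150 nt. Per the submitters' processing notes, reads were trimmed with fastp, mapped to mm10 with STAR 2.6.1d, counted per gene with featureCounts 1.5.0-p3 and tested with DESeq2 1.26.0. The authors deposited raw, whole-number counts for each gene and mouse. The annotation and strand setting of the counting were not given in the sources used here. Genes were named and located with GENCODE M21 of GRCm38, which lacked 37 of the 54532 identifiers (0.00429% of all counts).

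Counts were analysed with R 4.3.3 and edgeR 4.0.16, using TMM factors of 0.917 to 1.10, the filterByExpr function (minimum count 10) and the quasi-likelihood test, with Benjamini-Hochberg adjustment over 15472 genes. Calls were made at an adjusted p of 0.05. The biological coefficient of variation was 0.547. Ratios of counts, with 0.5 added to each sum, were compared with two-sided exact permutation tests. Scripts were tested on simulated data. The 10 genes, the lists and the tests were chosen with earlier results of these data known. The genes named are the 10, at most 3 of each list with the smallest p, Ptprc, Tyrobp, Csf1, Il34, Apoe, Folr2 and Lyve1, and the 5 genes most like the set and most like the C1q genes. Beyond this rule, Cd8a was picked after its values were seen, and S100a8 and Ngp are named because they were at 0. Lyz1 and Hmgxb3 are named because they bear on the counts of Lyz2 and Csf1r. A result that fell under this rule is not reported here. Labels give separate animal numbers, and all 8 mice were used. The alternatives were DESeq2 1.42.0, other scaling factors, library size alone, every gene with at least 1 count, removal of the exon length trend (lowess span 0.3), the animal number range (below 20 or above 49) as a term, leaving out each mouse, and for ratios 1 added to counts and counts per kilobase. PCR duplicates cannot be seen in counts. Promoter sequences are from RefSeq (GRCm38.p6).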

Additional observations from a re-analysis of the deposited data

Results flagged for a closer look

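In each group of 4 mice, the highest and the lowest mouse were compared with the others for the 10 genes, the 4 ratios and the marker sums. The gap of a mouse to its nearest neighbour, over the group's range, was set against the critical value of Dixon's test for 4 samples. Of 68 groups examined, 3 held a mouse above it. Chance alone gives about 1 in 20, so 3 is near the number that chance gives. None of the 3 was for the 10 genes, their sum or the 4 ratios. The summed level of the 6 pan-leukocyte genes was 725 CPM in control 3, far above the other controls. The summed level of seminal vesicle secretory genes was 4001 CPM in control 69, far above the other controls, and 97204 CPM in etanercept 17, far above the other treated mice.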

How the results depend on the processing

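With DESeq2's Wald test 25 genes were called between the groups in place of 0, and 0 of the 10 macrophage and C1q genes. DESeq2 without single mice was added after seeing the data and called 33, 19, 12 and 293 genes without control 1, 3, 65 and 69 and 21, 15, 22 and 10 without etanercept 17, 19, 50 and 52, with 1 of the 10 (C1qa, -1.40) without control 69 and 0 otherwise. Every other edgeR fit called 0 genes. For 7 of the 10 genes the sign of the log2 fold change was kept in 23 of 23 alternatives. Without control 3 it turned for Csf1r (0.20 in edgeR and 0.20 in DESeq2), Mrc1 (0.001 in edgeR) and Lyz2 (0.10 in edgeR and 0.11 in DESeq2), whose ranges over the left-out mice in edgeR were -0.59 to 0.20, -0.68 to 0.001 and -0.72 to 0.10. The ratio of Cd163 and Mrc1 to the pan-macrophage genes turned to 0.035 per kilobase, and leaving out each mouse gave -0.25 to 0.068. The Trem2 ratio ranged from -1.23 to -0.35 when each mouse was left out, with p = 0.0286 in an exact permutation test without etanercept 17. The cause of these changes was not tested. Library size alone moved the median of all genes to -0.094. No paired analysis was possible because the groups share no animal number and the labels do not name the blocks by which, per the methods, mice were assigned. With 4 mice per group the biological coefficient of variation was 0.547, and Cd163, Trem2 and Nos2 rest on few counts.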
